A study of Homo sapiens with 20 samples.

Results

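The genes described here are 34 enzymes of nucleotide synthesis and one-carbon metabolism, chosen by name from purine, pyrimidine and folate pathways. The choice was made with earlier results of these data known. On the array, 28 of the 34 had a probe set that carries their symbol alone, of 14232 genes so measured. PRPS1, NME1 and NME2 had only probe sets shared with another symbol, and no probe set was used for ADSS2, DTYMK and MTHFD1L. The measured genes comprise 7 of 8 in PRPP and purine synthesis up to IMP, 3 of 4 that turn IMP into AMP and GMP, 5 of 5 in pyrimidine synthesis, 5 of 6 in deoxynucleotide supply, 5 of 5 in salvage, 1 of 3 nucleotide kinases and 2 of 3 in folate one-carbon metabolism.

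The study measured RNA on 20 Affymetrix exon arrays from LP-1, a multiple myeloma line, and Raji, a Burkitt lymphoma line. Each line received 500 nM of a BET inhibitor for 4 or 8 h, 500 nM of its inactive enantiomer for 4 or 8 h, or no compound (0 h). Each of the 10 groups holds 2 biological replicates, so precision is limited by how few arrays there are. BET proteins are bromodomain readers of acetylated histones, and the enantiomer is the mirror-image molecule. The labels do not name the compound, and no untreated or vehicle sample at 4 or 8 h was analysed here, so a comparison with untreated cells joins compound and time in culture. Each line stands for a single cell line in culture and not for its disease.

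Cells make purines by building the ring step by step on phosphoribosyl pyrophosphate (PRPP) up to inosine monophosphate (IMP), and pyrimidines by building the ring first and then joining it to PRPP. Salvage kinases and phosphoribosyltransferases recycle finished bases and nucleosides. Ribonucleotide reductase and thymidylate synthase turn ribonucleotides into DNA precursors, and the folate enzymes supply the carbon units for purines and thymidylate. In lymphoid cancers many of these genes are known as targets of the transcription factor MYC, which BET inhibitors are known to lower.

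Levels are log2 RMA values and changes are log2 fold changes of the BET inhibitor over the inactive enantiomer with their standard error (SE), unless another comparison is named. A gene passed the test where limma's p, adjusted by the Benjamini-Hochberg method over all 22011 probe sets, was under 0.05. Array medians lay between 5.13 and 5.39, and replicate arrays correlated with Pearson's r of 0.973 to 0.989, taken across probe sets that are no independent replicates. The 6 measured B cell markers averaged 7.36 to 10.4 in Raji and 4.39 to 5.48 in LP-1, and the 6 plasma cell markers averaged 4.03 to 7.31 in Raji and 6.17 to 11.0 in LP-1. Markers of T, NK and myeloid cells averaged 2.15 to 5.84 in both lines. Of the epithelial markers, EPCAM was at 1.65 in Raji and 1.73 in LP-1, while KRT8 was at 8.43 to 9.46 on the Raji arrays, and at 8.59 to 9.36 on 9 LP-1 arrays and 4.21 on the other, the first BET inhibitor array at 8 h. In bulk RNA, fewer cells of a type and less RNA per cell cannot be told apart. The median SD between replicate arrays was 0.114 over the measured genes and groups, and the largest was 0.822 (AK4, in Raji with the inactive enantiomer at 8 h).

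MYC, read as a check of the treatment, was at 7.38 and 7.18 in LP-1 cells given the BET inhibitor for 4 h, against 9.59 and 9.58 with the inactive enantiomer. At 8 h it was at 7.66 and 7.49 against 9.37 and 9.47, and untreated LP-1 cells had 9.33 and 9.76. In Raji it was at 6.97 and 7.00 against 8.36 and 8.42 at 4 h and at 6.99 and 7.23 against 8.62 and 8.40 at 8 h, with 8.35 and 8.59 in untreated cells. Within each line all 4 BET inhibitor arrays lay below the other 6. HEXIM1, an inhibitor of P-TEFb, was at 8.29 and 8.07 against 7.14 and 7.13 in LP-1 at 4 h and at 8.68 and 8.34 against 6.98 and 7.14 at 8 h, with 7.41 and 7.22 in untreated cells. In Raji it was at 8.18 and 8.16 against 6.35 and 6.13 at 4 h and at 8.23 and 8.33 against 6.36 and 6.40 at 8 h, with 6.36 and 6.41 in untreated cells. The BET inhibitor arrays of each line lay above the others. MYC fell and HEXIM1 rose in all 4 comparisons, with the highest adjusted p at 0.00269 (limma).

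There were 5 genes that passed the test of the BET inhibitor over the inactive enantiomer at a single time. The share of all probe sets that passed at any single time was not counted, and the share in each comparison is given below. Promoter windows of the 5 genes are shown first, so that their sequence can be read beside their values. Each runs from 250 bases before to 50 bases after the gene's start in the RefSeq annotation of GRCh38.p14, printed 5′ to 3′ on the gene's strand. UCK2 (uridine-cytidine kinase) lies at chr1:165827364-165827663 on the plus strand and PFAS (a middle step of purine synthesis) at chr17:8249039-8249338 on the plus strand. CAD (the enzyme of the opening steps of pyrimidine synthesis) lies at chr2:27217119-27217418 on the plus strand and UMPS (the enzyme that makes UMP) at chr3:124730202-124730501 on the plus strand. CTPS2 (a CTP synthase) is shown by the first of its 2 windows, at chrX:16712620-16712919 on the minus strand. PPAT, the first committed enzyme of purine synthesis, is shown for contrast at chr4:56435566-56435865 on the minus strand. Capitals mark CACGTG (the E-box that MYC and MAX bind), CCAAT and GGGCGG, each on either strand.
UCK2: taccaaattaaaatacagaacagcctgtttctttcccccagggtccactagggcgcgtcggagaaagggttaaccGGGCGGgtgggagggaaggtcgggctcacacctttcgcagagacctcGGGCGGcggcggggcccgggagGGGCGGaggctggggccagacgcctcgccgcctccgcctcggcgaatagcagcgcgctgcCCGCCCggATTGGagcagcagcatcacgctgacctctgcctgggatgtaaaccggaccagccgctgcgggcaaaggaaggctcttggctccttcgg
PFAS: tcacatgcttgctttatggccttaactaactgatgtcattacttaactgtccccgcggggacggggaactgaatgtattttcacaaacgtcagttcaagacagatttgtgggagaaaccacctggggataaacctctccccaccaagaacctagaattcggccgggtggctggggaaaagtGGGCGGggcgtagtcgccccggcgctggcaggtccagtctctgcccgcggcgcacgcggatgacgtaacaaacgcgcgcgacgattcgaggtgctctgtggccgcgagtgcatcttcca
CAD: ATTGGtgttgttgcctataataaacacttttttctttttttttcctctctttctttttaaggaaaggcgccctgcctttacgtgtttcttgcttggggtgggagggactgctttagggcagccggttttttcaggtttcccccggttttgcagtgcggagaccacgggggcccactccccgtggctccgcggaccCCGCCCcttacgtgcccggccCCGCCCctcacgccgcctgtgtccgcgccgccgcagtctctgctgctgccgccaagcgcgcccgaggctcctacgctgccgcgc
UMPS: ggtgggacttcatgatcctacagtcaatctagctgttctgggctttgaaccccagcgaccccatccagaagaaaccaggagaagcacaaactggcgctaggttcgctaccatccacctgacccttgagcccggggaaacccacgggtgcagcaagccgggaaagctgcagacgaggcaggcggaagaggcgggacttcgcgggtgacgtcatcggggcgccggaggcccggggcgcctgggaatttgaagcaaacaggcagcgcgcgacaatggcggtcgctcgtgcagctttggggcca
CTPS2: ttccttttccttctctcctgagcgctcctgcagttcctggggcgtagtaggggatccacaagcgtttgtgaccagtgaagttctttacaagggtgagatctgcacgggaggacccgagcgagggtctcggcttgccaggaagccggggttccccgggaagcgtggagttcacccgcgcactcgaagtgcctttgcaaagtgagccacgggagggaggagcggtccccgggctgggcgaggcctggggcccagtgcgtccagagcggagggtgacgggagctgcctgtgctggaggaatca
PPAT: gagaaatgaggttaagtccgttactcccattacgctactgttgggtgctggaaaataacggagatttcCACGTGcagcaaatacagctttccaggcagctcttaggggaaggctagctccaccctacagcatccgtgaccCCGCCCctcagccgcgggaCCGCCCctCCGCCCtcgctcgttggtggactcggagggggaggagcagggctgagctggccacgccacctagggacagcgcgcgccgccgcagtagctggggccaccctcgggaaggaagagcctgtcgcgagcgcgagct

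Of the 28 measured genes, 25 had a window. CACGTG stood in the windows of 7 of these 25 genes (PPAT, PAICS, ATIC, DHODH, DCK, AK4 and MTHFD1), against 8.77% of the 27305 genes with a window. CCAAT stood in 9 of the 25, against 39.7% of all genes, and GGGCGG in 22 of the 25, against 48.3%. A gene was counted where any of its windows held the letters on either strand. The printed windows of UCK2, PFAS, CAD, UMPS and CTPS2 hold no CACGTG, and that of PPAT holds 1. PPAT and PAICS face away from each other where the PAICS start 137 bases from that of PPAT is taken, whose window shares 236 bases with the PPAT window, the single CACGTG among them. PAICS has 3 windows, and the other 2 share 0 bases with that of PPAT. A match is a description of letters and not a measured binding site. Bases beyond the windows were not read, so a window without CACGTG does not show that its gene lacks one nearby.

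Setting the BET inhibitor beside its mirror image at matched dose and time asks how far these genes depend on which form the cells received. It is a single pair of compounds at 1 dose. In LP-1 at 4 h, UMPS fell and 27 of the 28 genes did not pass, while 2.28% of all probe sets passed in either direction and 1.90% fell. In LP-1 at 8 h, PFAS, CAD and UCK2 fell and 25 did not pass, while 5.73% of all probe sets passed and 1.97% fell. In Raji at 4 h none of the 28 passed by limma, while 1.78% of all probe sets passed and 0.341% fell, and 5 of the 28 had an unadjusted p under 0.05. In Raji at 8 h, PFAS, CTPS2 and UCK2 fell and 25 did not pass, while 1.88% of all probe sets passed and 1.05% fell. No measured gene rose in any of these 4 comparisons taken singly with the values as deposited. After quantile normalization the split was 1 higher (RRM2) and 5 lower in LP-1 at 8 h, and 2 higher (TK1 and SHMT1) and 3 lower in Raji at 8 h. With each array centred on its median, Raji at 8 h had 1 higher (TK1) and 3 lower.

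The median change of the 28 genes was -0.19 in LP-1 at 4 h, against -0.04 over all probe sets, and -0.21 in LP-1 at 8 h, against 0.06. In Raji it was -0.01 at 4 h, against 0.01 over all probe sets, and -0.07 at 8 h, against -0.00. With the dimmest probe sets left out, the median over the remaining probe sets was -0.10 and 0.07 in LP-1 and 0.05 and 0.00 in Raji. In LP-1 at 4 h the 75th percentile of the array was 6.80 and 7.03 with the BET inhibitor, against 7.12 and 7.16 with the inactive enantiomer, and the part of this gap in the changes of bright genes was not tested. After quantile normalization the LP-1 4 h median was -0.06, against 0.03 over all probe sets, and UMPS no longer passed.

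Counted by overlap, both BET inhibitor arrays lay below both inactive enantiomer arrays for 16 of the 28 genes in LP-1 at 4 h, against 26.4% of all probe sets. The same count was 9 in LP-1 at 8 h (16.3%), 6 in Raji at 4 h (20.2%) and 11 at 8 h (20%). Both arrays lay above for 1 gene in LP-1 at 4 h (17.6%), 5 at 8 h (27.9%), 10 in Raji at 4 h (23.5%) and 6 at 8 h (20.3%). These shares include dim probe sets, and no share among probe sets as bright as the 28 genes was counted. PFAS, CTPS1 and UCK2 lay below without overlap in all 4 comparisons, as did 2.04% of all probe sets. The mean was lower in all 4 comparisons for 10 genes (GART, PFAS, ADSL, ATIC, IMPDH1, GMPS, CAD, DHODH, CTPS1 and UCK2), against 10.6% of all probe sets, and higher in all 4 for IMPDH2, RRM2 and TK1, against 10.1%.

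**Figure D1:**
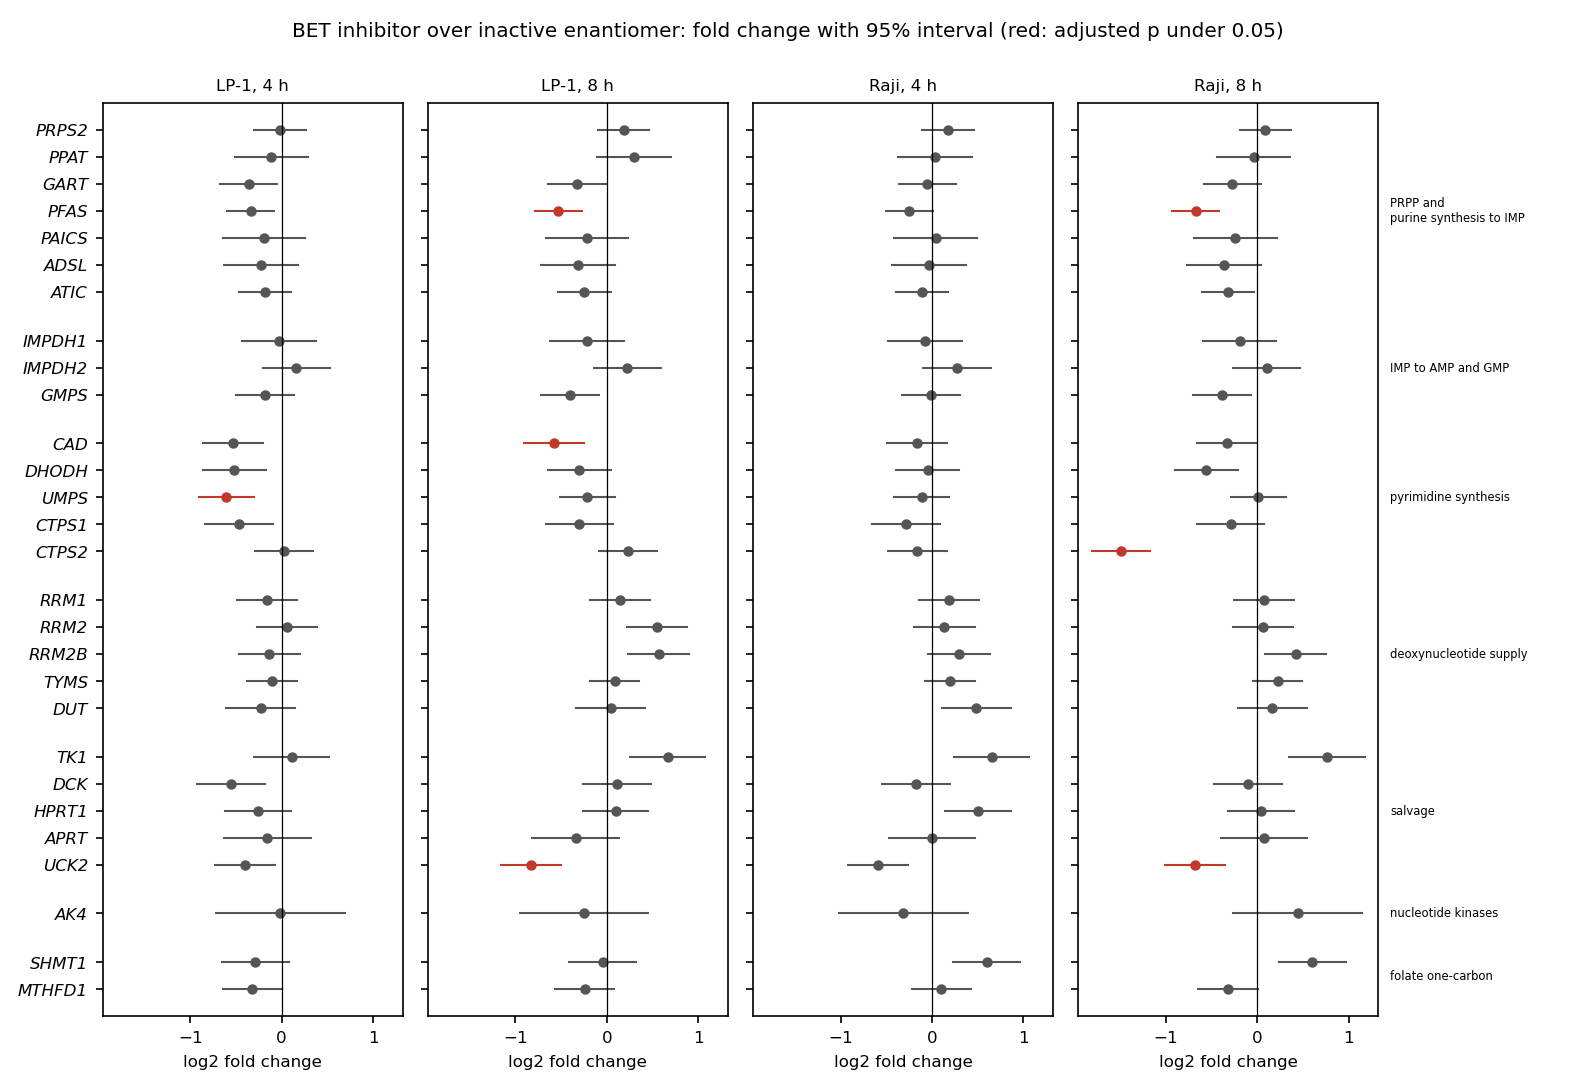
Log2 fold change of the BET inhibitor over the inactive enantiomer (x axis) for the 28 measured genes, grouped by role (right margin), in LP-1 and Raji at 4 and 8 h. Points are limma estimates with 95% intervals, in red where the adjusted p was under 0.05. The red points are UMPS in LP-1 at 4 h, PFAS, CAD and UCK2 in LP-1 at 8 h, and PFAS, CTPS2 and UCK2 in Raji at 8 h, all left of 0.

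Among the purine enzymes up to IMP, PFAS fell in both lines at 8 h. It stood at 6.24 and 6.03 in LP-1 cells given the BET inhibitor for 8 h, against 6.68 and 6.64 with the inactive enantiomer. In Raji at 8 h it stood at 6.42 and 6.19 against 6.92 and 7.04. The groups did not overlap in either line, and the change was -0.53 ± 0.12 in LP-1 (adjusted p = 0.0209) and -0.67 ± 0.12 in Raji (adjusted p = 0.0144), both by limma. At 4 h PFAS was at 6.48 and 6.35 against 6.71 and 6.80 in LP-1, and at 6.49 and 6.58 against 6.75 and 6.82 in Raji. These groups did not overlap either, but the changes of -0.34 and -0.25 did not pass. Untreated cells had 6.81 and 6.77 in LP-1 and 7.05 and 7.19 in Raji. Both 8 h calls were lost in the fit on the line alone. The 8 h calls depended on the arrays used, since each remained in 1 of the 4 fits that leave out an array (highest adjusted p 0.113 in LP-1 and 0.134 in Raji).

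The other 6 measured purine enzymes of this stretch did not pass over the inactive enantiomer. PRPS2, which makes PRPP, was at 8.21 and 8.44 in LP-1 with the BET inhibitor at 4 h against 8.41 and 8.28, and at 8.43 and 8.30 at 8 h against 8.10 and 8.26, with 8.64 and 8.48 in untreated cells. Raji arrays of PRPS2 were at 8.21 and 8.27 against 7.99 and 8.15 at 4 h and at 8.08 and 8.21 against 7.95 and 8.16 at 8 h, with 8.27 and 8.19 in untreated cells. It changed by -0.02 and 0.18 in LP-1 at 4 and 8 h and by 0.17 and 0.09 in Raji. PPAT had changes between -0.11 and 0.30. GART, a protein with several early activities of the pathway, had -0.36, -0.33, -0.05 and -0.27 in LP-1 at 4 and 8 h and Raji at 4 and 8 h. ADSL and ATIC, which act in the closing steps, were negative in all 4 comparisons with values between -0.36 and -0.03 for ADSL and between -0.32 and -0.11 for ATIC. PAICS ranged between -0.24 and 0.04. The median of the 7 genes was -0.19 and -0.24 in LP-1 at 4 and 8 h and -0.03 and -0.27 in Raji.

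Beyond IMP, none of IMPDH1, IMPDH2 and GMPS passed in the 4 comparisons. IMPDH1 and IMPDH2 are paralogs that catalyse the rate-limiting step towards GMP, and their means went opposite ways in each comparison. IMPDH1 was at 6.10 and 6.36 in LP-1 with the BET inhibitor at 8 h, against 6.55 and 6.34, and IMPDH2 was at 9.62 and 9.47 against 9.10 and 9.55. In Raji at 8 h IMPDH1 was at 6.35 and 6.15 against 6.75 and 6.13, and IMPDH2 at 9.23 and 9.20 against 9.18 and 9.04. For IMPDH1 the groups overlapped in both lines. At 4 h IMPDH1 was at 6.58 and 6.39 against 6.44 and 6.59 in LP-1 and at 6.27 and 6.38 against 6.41 and 6.40 in Raji. IMPDH2 was then at 9.39 and 9.64 against 9.40 and 9.31 in LP-1 and at 9.12 and 9.29 against 8.72 and 9.13 in Raji. Untreated cells had 6.48 and 6.74 in Raji and 6.38 and 6.55 in LP-1 for IMPDH1, and 9.00 and 9.05 in Raji and 9.45 and 9.63 in LP-1 for IMPDH2. Changes stayed between -0.21 and -0.03 for IMPDH1 and between 0.10 and 0.27 for IMPDH2. GMPS, the GMP synthase, had -0.40 ± 0.15 in LP-1 at 8 h (adjusted p = 0.148, limma) and -0.39 ± 0.15 in Raji at 8 h (adjusted p = 0.258, limma).

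Pyrimidine synthesis held 3 of the 5 genes that passed over the inactive enantiomer in any single comparison. In the single comparisons 2.28% and 5.73% of all probe sets passed in LP-1 at 4 and 8 h and 1.78% and 1.88% in Raji. CAD, whose protein carries carbamoyl phosphate synthetase, aspartate transcarbamylase and dihydroorotase, was at 6.11 and 6.13 in LP-1 with the BET inhibitor at 8 h, against 6.61 and 6.79 with the inactive enantiomer. At 4 h it was at 6.02 and 6.37 against 6.65 and 6.81, and untreated LP-1 cells had 6.73 and 6.90. All 4 BET inhibitor arrays of LP-1 lay below all the others of the line. The change was -0.58 ± 0.15 at 8 h (adjusted p = 0.0422, limma) and -0.53 ± 0.15 at 4 h (adjusted p = 0.098, limma). In Raji CAD was at 6.84 and 6.92 against 6.85 and 7.24 at 4 h and at 6.88 and 6.84 against 7.26 and 7.11 at 8 h. Untreated Raji cells had 7.22 and 7.21, and neither Raji change passed (-0.16 and -0.33). In the fit on LP-1 alone the LP-1 8 h call was lost. The LP-1 8 h call was lost without any 1 of its 4 arrays, with an adjusted p of up to 0.209.

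UMPS was at 8.83 and 8.91 in LP-1 with the BET inhibitor at 4 h, against 9.48 and 9.46 with the inactive enantiomer. At 8 h it was at 9.20 and 9.10 against 9.38 and 9.35, and untreated LP-1 cells had 9.39 and 9.45. The 4 h arrays stood furthest from the rest, with a change of -0.60 ± 0.14 (1.52-fold lower, adjusted p = 0.0427, limma), and the 8 h change of -0.21 did not pass. In Raji UMPS was at 8.17 and 8.22 against 8.12 and 8.49 at 4 h and at 8.49 and 8.20 against 8.45 and 8.21 at 8 h, so the groups overlapped. Untreated Raji cells had 8.21 and 8.27. The LP-1 call was lost without any 1 of its 4 arrays (highest adjusted p 0.245), after centring each array on its median and in the fit on LP-1 alone. The difference of the 4 h response, Raji minus LP-1, was 0.49 ± 0.20 and did not pass (adjusted p = 0.27, limma).

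CTPS1 and CTPS2 are paralogs that make CTP from UTP, and the gap between their changes was widest in Raji at 8 h (-0.29 for CTPS1 and -1.49 for CTPS2) and narrowest in Raji at 4 h (-0.28 and -0.16). CTPS2 was at 5.81 and 6.10 in Raji with the BET inhibitor at 8 h, against 7.45 and 7.44 with the inactive enantiomer. At 4 h it was at 6.93 and 6.94 against 7.20 and 6.99, and untreated Raji cells had 7.41 and 7.35. Both BET inhibitor arrays at 8 h lay below the other 8 arrays of the line. The change was -1.49 ± 0.15 at 8 h (2.81-fold lower, adjusted p = 0.000725, limma), and it passed in all 4 fits without 1 of the arrays (highest adjusted p 0.0138). At 4 h it was -0.16 and did not pass, and the difference of the response between 8 and 4 h was -1.33 ± 0.21 (adjusted p = 0.106, limma).

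In LP-1 the CTPS2 probe set was at 3.50 to 4.27 on all 10 arrays. With the BET inhibitor it had 4.02 and 4.10 at 4 h and 3.89 and 3.97 at 8 h, against 4.06 and 4.00 and then 3.50 and 3.89 with the inactive enantiomer. Untreated LP-1 cells had 4.27 and 4.03. The 25th percentile of these arrays was 3.78 to 3.89, and the deposited values carry no test against background. The difference of the 8 h response, Raji minus LP-1, was -1.72 ± 0.21 (adjusted p = 0.0054, limma), and CTPS2 was the only one of the 28 genes to pass it, as did 0.245% of all probe sets. At 4 h none of the 28 passed the difference between lines by limma, against 0.114% of all probe sets, and 4 had an unadjusted p under 0.05.

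CTPS1 was below without overlap in each comparison, by smaller amounts. It had 8.34 and 8.68 in LP-1 with the BET inhibitor at 4 h against 8.96 and 8.99, and 8.54 and 8.41 at 8 h against 8.74 and 8.81. In Raji it had 8.62 and 8.78 against 8.78 and 9.18 at 4 h and 8.76 and 8.70 against 9.21 and 8.83 at 8 h. In Raji at 4 h the nearest arrays of the groups were equal to 2 decimals. Untreated cells had 8.79 and 8.85 in Raji and 8.81 and 9.06 in LP-1. Its changes were -0.47, -0.30, -0.28 and -0.29, and none passed. DHODH, the mitochondrial enzyme that makes orotate, was at 5.20 and 5.15 in LP-1 with the BET inhibitor at 4 h against 5.76 and 5.62, and at 5.54 and 5.08 at 8 h against 5.53 and 5.69, with 5.86 and 5.75 in untreated cells. Raji arrays of DHODH were at 4.73 and 4.87 against 4.93 and 4.77 at 4 h and at 4.88 and 5.18 against 5.46 and 5.71 at 8 h, with 5.36 and 5.41 in untreated cells. The groups did not overlap in LP-1 at 4 h and in Raji at 8 h, and overlapped in the other comparisons. DHODH had -0.52 ± 0.16 in LP-1 at 4 h (adjusted p = 0.134, limma) and -0.56 ± 0.16 in Raji at 8 h (adjusted p = 0.117, limma), with -0.30 in LP-1 at 8 h and -0.05 in Raji at 4 h. The median of the 5 pyrimidine genes was -0.52 and -0.30 in LP-1 at 4 and 8 h and -0.16 and -0.33 in Raji.

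**Figure D2:**
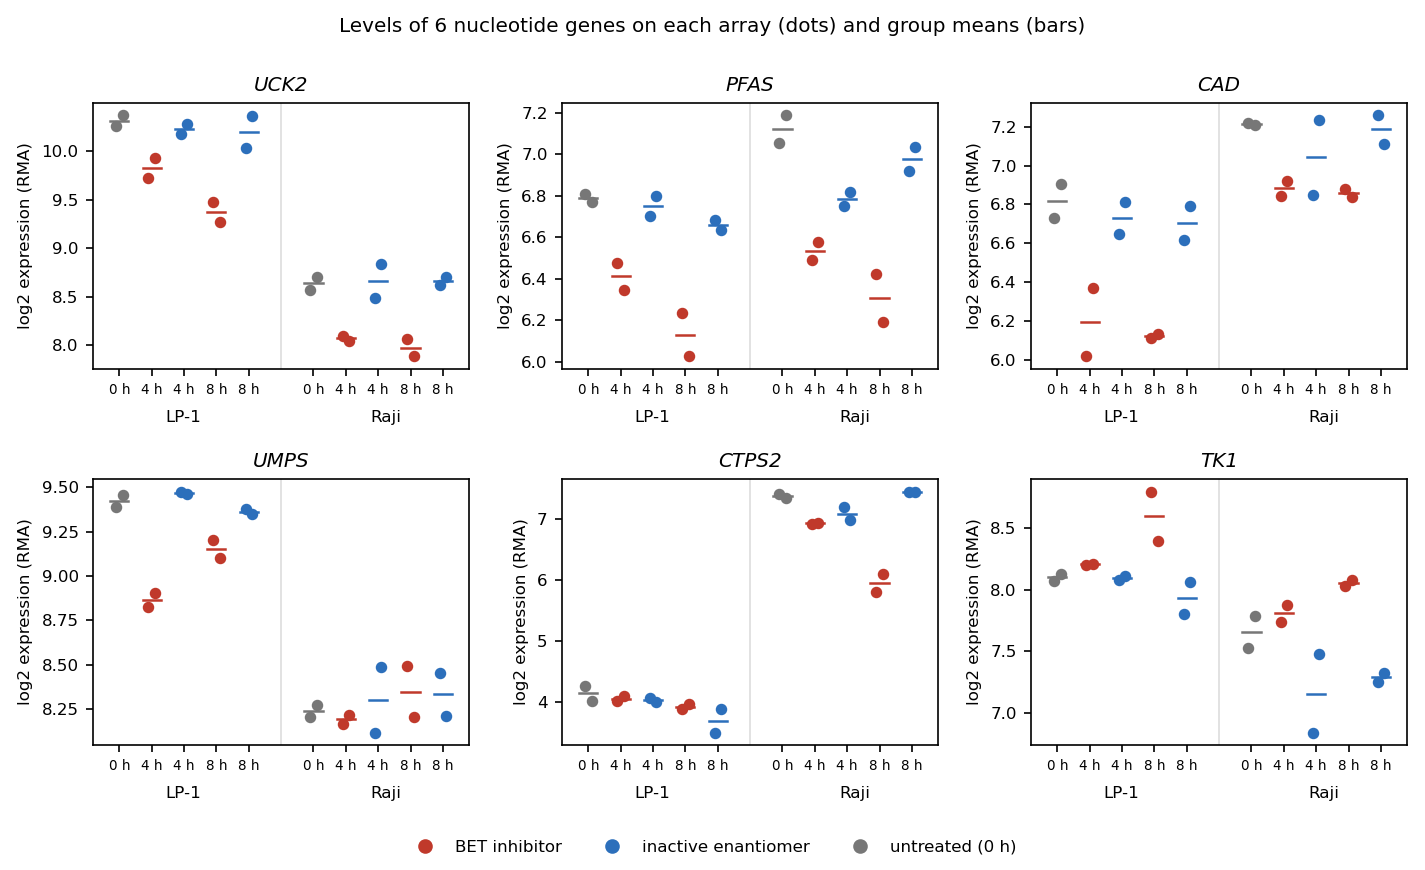
Log2 RMA level (y axis) of UCK2, PFAS, CAD, UMPS, CTPS2 and TK1 on each array, with a bar at each group mean, for untreated cells at 0 h and for the BET inhibitor and the inactive enantiomer at 4 and 8 h in LP-1 and Raji. UCK2 and PFAS lie lower with the BET inhibitor than with the inactive enantiomer in both lines, UMPS in LP-1, and CTPS2 is lowest in Raji at 8 h among the Raji arrays (5.81 and 6.10).

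In salvage, UCK2 fell and the other 4 genes did not pass over the inactive enantiomer in any single comparison. UCK2 phosphorylates uridine and cytidine. It was at 9.73 and 9.93 in LP-1 with the BET inhibitor at 4 h against 10.18 and 10.28, and at 9.48 and 9.27 at 8 h against 10.04 and 10.37. In Raji it was at 8.10 and 8.05 at 4 h against 8.49 and 8.84, and at 8.07 and 7.89 at 8 h against 8.62 and 8.70. Untreated cells had 10.26 and 10.37 in LP-1 and 8.57 and 8.71 in Raji. Within each line the 4 BET inhibitor arrays lay below all 6 others. The change was -0.83 ± 0.15 in LP-1 at 8 h (1.77-fold lower, adjusted p = 0.0081, limma) and -0.69 ± 0.15 in Raji at 8 h (1.61-fold lower, adjusted p = 0.0398, limma). At 4 h it was -0.40 in LP-1 and -0.59 in Raji, which did not pass. Both 8 h calls were lost in the fit on the line alone. The LP-1 8 h call was lost without the second inactive enantiomer array (adjusted p = 0.0718, limma), and the Raji 8 h call without any 1 of its 4 arrays (highest adjusted p 0.262).

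TK1, the cytosolic thymidine kinase, had the largest positive changes of the salvage genes. It was at 8.79 and 8.39 in LP-1 with the BET inhibitor at 8 h against 7.80 and 8.06, and at 8.20 and 8.21 at 4 h against 8.08 and 8.11. In Raji it was at 7.74 and 7.88 at 4 h against 6.84 and 7.47, and at 8.03 and 8.07 at 8 h against 7.25 and 7.32. The BET inhibitor arrays lay above the inactive enantiomer arrays in each comparison. Untreated cells had 8.07 and 8.13 in LP-1 and 7.53 and 7.79 in Raji. The changes of 0.11, 0.67, 0.65 and 0.76 did not pass singly, with adjusted p between 0.0624 and 0.854. DCK, which phosphorylates deoxycytidine, had -0.56 ± 0.17 in LP-1 at 4 h (adjusted p = 0.13, limma) and values between -0.18 and 0.11 elsewhere. HPRT1, which recycles hypoxanthine and guanine, ranged between -0.26 and 0.51, and APRT, which recycles adenine, between -0.34 and 0.08.

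In deoxynucleotide supply none of the 5 measured genes passed in the 4 comparisons. The median change was -0.13 in LP-1 at 4 h. All 5 changes were positive in LP-1 at 8 h (median 0.15) and in Raji at 4 h (0.20) and 8 h (0.17). Over untreated LP-1 cells at 8 h, all 5 were negative with the inactive enantiomer (median -0.32). With the BET inhibitor RRM1, TYMS and DUT lay below untreated there and RRM2 and RRM2B above (median -0.21). In Raji the medians of the BET inhibitor over untreated cells were 0.17 at 4 h and 0.10 at 8 h. RRM2 and RRM2B are alternative small subunits of ribonucleotide reductase, RRM2B being the form known for its control by p53. In LP-1 at 8 h RRM2 was at 11.75 and 12.10 with the BET inhibitor against 11.41 and 11.34, and RRM2B was at 5.99 and 6.03 against 5.40 and 5.49. The groups did not overlap for either gene, and the changes were 0.55 ± 0.15 (adjusted p = 0.0547) and 0.57 ± 0.16 (adjusted p = 0.0526), both by limma. Both passed where probe sets of low mean were left out or the prior variance followed intensity.

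In LP-1 at 4 h RRM2 was at 11.46 and 11.69 against 11.49 and 11.54, and RRM2B at 5.37 and 5.81 against 5.70 and 5.75. In Raji RRM2 was at 11.37 and 11.62 against 11.35 and 11.36 at 4 h and at 11.59 and 11.40 against 11.51 and 11.36 at 8 h. RRM2B in Raji was at 8.22 and 8.53 against 8.18 and 7.99 at 4 h and at 8.42 and 8.64 against 8.17 and 8.05 at 8 h. Untreated cells had 11.22 and 11.20 in Raji and 11.33 and 11.64 in LP-1 for RRM2. For RRM2B they had 8.06 and 7.92 in Raji and 5.83 and 5.88 in LP-1. In LP-1 at 8 h both BET inhibitor arrays of RRM2B lay above untreated and both inactive enantiomer arrays below. In Raji RRM2B was above the inactive enantiomer without overlap at both times, with changes of 0.29 and 0.42 that did not pass. Of RRM1, the large subunit, TYMS, the thymidylate synthase, and DUT, which removes dUTP, the changes ranged between -0.23 and 0.48, the highest being DUT in Raji at 4 h.

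Since several of these genes follow the cell cycle, 15 other measured genes of S phase were read beside them. Their median change was -0.17 in LP-1 at 4 h, 0.15 at 8 h, 0.00 in Raji at 4 h and -0.12 at 8 h. Of the 15, only CCNE2 rose in LP-1 at 8 h (0.66 ± 0.18, adjusted p = 0.0473, limma), only CCNE1 rose in Raji at 4 h (0.76 ± 0.17, adjusted p = 0.0474, limma), and none fell in the 4 comparisons, against the shares of all probe sets that passed there (5.73% in LP-1 at 8 h and 1.78% in Raji at 4 h). Over untreated LP-1 cells at 8 h, CCNE2 fell with the inactive enantiomer, while 0.504% of all probe sets passed. With the BET inhibitor none of the 15 rose there and PRIM1 fell, as did 5.68% of all probe sets. In Raji at 4 h none of the 15 passed over untreated cells with either compound by limma. The part of cell cycle position in the changes of TK1, RRM2 and the other DNA precursor genes was not tested.

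Of the folate genes, SHMT1, the cytosolic serine hydroxymethyltransferase, was at 5.96 and 6.26 in Raji with the BET inhibitor at 4 h against 5.39 and 5.63. At 8 h it was at 6.08 and 6.30 against 5.75 and 5.42, and untreated Raji cells had 5.98 and 5.77. The BET inhibitor arrays lay above those of the inactive enantiomer, with a change of 0.60 at each time that did not pass singly (adjusted p = 0.103 and 0.106, limma). In LP-1 SHMT1 was at 6.77 and 7.03 against 7.15 and 7.22 at 4 h and at 6.91 and 6.65 against 6.72 and 6.94 at 8 h, with 7.37 and 7.33 in untreated cells. MTHFD1, the trifunctional folate enzyme, had -0.32, -0.24, 0.10 and -0.32. AK4, a mitochondrial adenylate kinase and the only kinase of its group measured, had changes between -0.31 and 0.44 with an SE of 0.33, the largest SE of the 28 genes.

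Averaging the 4 and 8 h responses gave each line 4 arrays per compound. In LP-1, 5 of the 28 genes fell (PFAS, CAD, DHODH, UMPS and UCK2) and none rose, while 7.06% of all probe sets passed and 4.44% fell. In Raji, PFAS, CTPS2 and UCK2 fell and TK1 and SHMT1 rose, while 6.29% of all probe sets passed, 4.30% rising and 1.99% falling. After quantile normalization the split was 1 higher (TK1) and 8 lower in LP-1, and 2 higher and 5 lower in Raji. UCK2 fell by 0.61 ± 0.11 in LP-1 (adjusted p = 0.00424, limma) and by 0.64 ± 0.11 in Raji (adjusted p = 0.00379, limma). PFAS fell by 0.43 ± 0.08 in LP-1 (adjusted p = 0.00742, limma) and by 0.46 ± 0.08 in Raji (adjusted p = 0.00611, limma). The estimates for these genes in the separate lines lay within 1 SE of each other.

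CAD fell by 0.56 ± 0.11 in LP-1 (adjusted p = 0.00742, limma), and in Raji its averaged change of -0.24 did not pass. TK1 rose by 0.71 ± 0.13 (1.63-fold, adjusted p = 0.00787, limma) and SHMT1 by 0.60 ± 0.12 (1.52-fold, adjusted p = 0.00984, limma) in Raji. For both genes the Raji inactive enantiomer arrays lay below the untreated arrays at both times. Over untreated Raji cells neither passed with the BET inhibitor at 4 or 8 h with the values as deposited. UMPS (-0.41 ± 0.10) and DHODH (-0.41 ± 0.11) passed in LP-1 with adjusted p of 0.0255 and 0.0485 (limma). UCK2 and PFAS in both lines, CAD in LP-1, and CTPS2 and TK1 in Raji passed in all 8 fits that leave out an array. SHMT1 was lost without the second Raji BET inhibitor array at 4 h (adjusted p = 0.0538, limma), UMPS in 6 of 8 such fits and DHODH in 7 of 8. No gene of the 28, and no probe set, passed the difference of the response between 8 and 4 h in either line by limma, and 3 of the 28 had an unadjusted p under 0.05 in each line.

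The inactive enantiomer was also set against untreated cells. None of the 28 genes passed by limma in either line at either time, against 0.0136% of all probe sets in LP-1 at 4 h, 0.504% at 8 h and 0% in Raji at both times. An unadjusted p under 0.05 was found for 0 of the 28 in LP-1 at 4 h, 10 at 8 h, 4 in Raji at 4 h and 0 at 8 h. A p that misses the threshold does not show equal levels. In LP-1 at 8 h 26 of the 28 changes were negative, with a median of -0.22. Over all probe sets the median was -0.08, or -0.13 with the dimmest left out. Of the 28 genes 18 lay below untreated without overlap, against 32.9% of all probe sets. After quantile normalization 19 were negative with a median of -0.13, against 0.01 over all probe sets, and with arrays centred 21 with a median of -0.10, against 0.03. HPRT1 had the lowest value there (-0.62, 95% interval -0.98 to -0.26). For UCK2 at 8 h the 95% interval ran between -0.44 and 0.22 in LP-1, and between -0.31 and 0.35 in Raji. For CTPS2 in Raji at 8 h it ran between -0.25 and 0.39, and for PFAS between -0.40 and 0.11.

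Against untreated cells, the BET inhibitor gave a fall of GART, CAD, DHODH, UMPS and DCK in LP-1 at 4 h (as did 6% of all probe sets) and of GART, PFAS, GMPS, CAD, MTHFD1 and UCK2 at 8 h (5.68%). In Raji PFAS alone fell at 4 h (0.595%), and PFAS, CTPS2 and UCK2 fell at 8 h (1.22%). These comparisons share the BET inhibitor arrays with those above, and none of the 28 genes rose in them with the values as deposited. After quantile normalization LP-1 at 8 h had 1 higher (TK1) and 5 lower. GART was at 8.00 and 7.79 in LP-1 with the BET inhibitor at 8 h, against 8.74 and 8.70 in untreated cells, a change of -0.83 ± 0.14 (adjusted p = 0.00386, limma), while the inactive enantiomer gave 8.14 and 8.30. GMPS changed by -0.67 ± 0.15 (adjusted p = 0.0143, limma) and MTHFD1 by -0.56 ± 0.15 (adjusted p = 0.0396, limma). The 5 calls in LP-1 at 4 h were all lost after quantile normalization and after centring each array on its median.

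The untreated lines differed in 9 of the 28 genes, 3 higher and 6 lower in Raji, against 24.3% of all probe sets (6.79% higher and 17.5% lower). CTPS2 was at 7.41 and 7.35 in Raji against 4.27 and 4.03 in LP-1, a difference of 3.23 ± 0.15 (adjusted p = 3.43e-09, limma). The 25th percentile of both LP-1 arrays was 3.82, and with no test against background used here the size is read as a lower bound. RRM2B was at 8.06 and 7.92 in Raji against 5.83 and 5.88 in LP-1, a difference of 2.14 ± 0.16 (adjusted p = 2.98e-07, limma). DCK was higher by 0.54 ± 0.17. UCK2 was at 8.57 and 8.71 in Raji against 10.26 and 10.37 in LP-1, a difference of -1.67 ± 0.15 (adjusted p = 2.38e-06, limma).

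SHMT1 (-1.47 ± 0.17), UMPS (-1.18 ± 0.14), APRT (-1.12 ± 0.22), TYMS (-0.64 ± 0.12) and IMPDH2 (-0.51 ± 0.17) were also lower in Raji. The split of calls moved with the scaling. It was 7 higher and 5 lower after quantile normalization, with PFAS, CAD, DUT and MTHFD1 added to the higher genes and IMPDH2 lost, and 6 higher and 5 lower with each array centred on its median. The median difference was -0.13 as deposited and 0.10 after quantile normalization, against -0.03 and 0.07 over all probe sets.

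**Figure D3:**
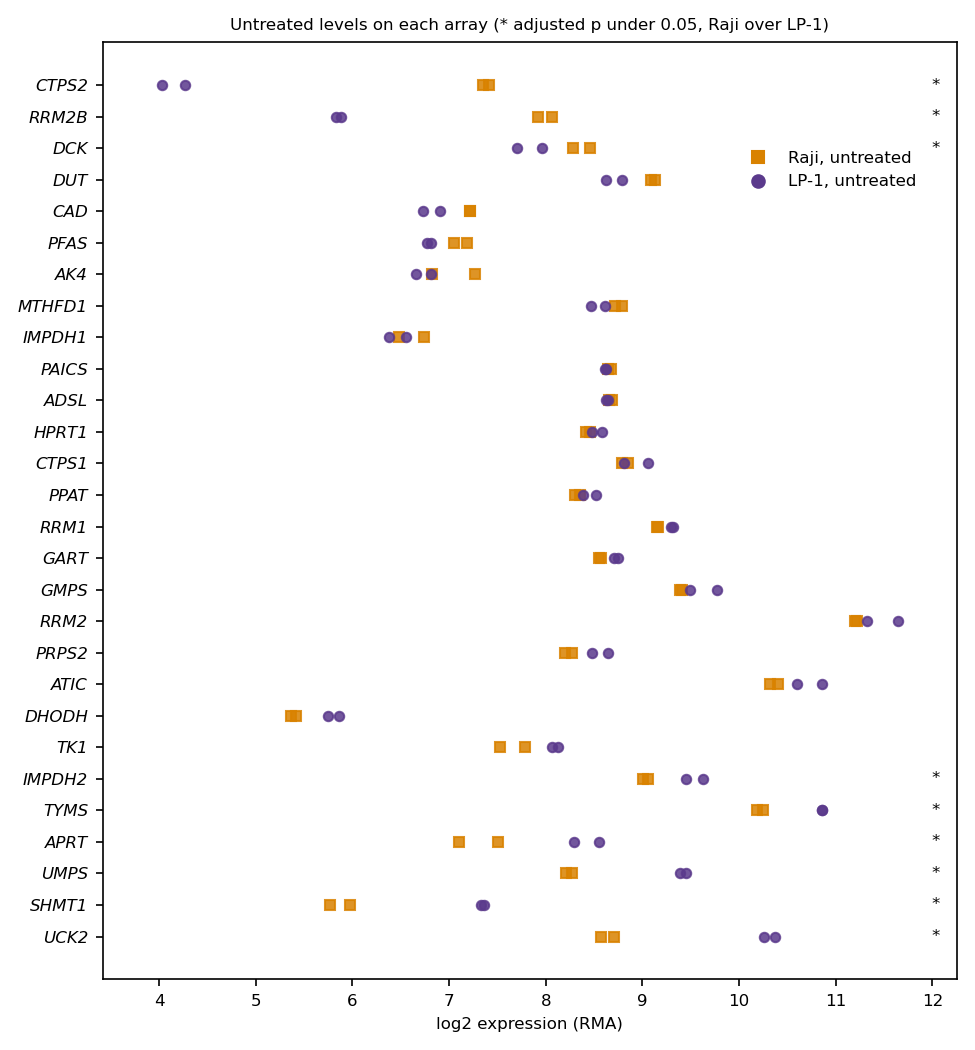
Log2 RMA level (x axis) of the 28 measured genes on the untreated arrays, 2 of Raji (squares) and 2 of LP-1 (circles), ordered by the difference Raji minus LP-1. Asterisks mark the 9 genes with an adjusted p under 0.05, with CTPS2, RRM2B and DCK higher in Raji and UCK2 lowest relative to LP-1; levels of different genes come from different probes and are not comparable.

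A wider list of 69 other genes of nucleotide and one-carbon metabolism had 54 measured. In LP-1 at 4 h ITPA fell and 53 did not pass, while 2.28% of all probe sets passed. In LP-1 at 8 h NT5C3A rose and DCTPP1, AMPD1, SLC19A1, DCTD, UPRT and ITPA fell, with 47 not passing, while 5.73% of all probe sets passed. In Raji at 4 h none passed by limma (1.78% of all probe sets), and at 8 h AK3 rose, PSAT1, DCTD and PHGDH fell and 50 did not pass (1.88%). The medians of the 54 were -0.10, 0.05, 0.06 and -0.00 in the same order.

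In LP-1 at 8 h DCTPP1, a phosphatase that clears dCTP and its modified forms, was at 7.57 and 7.15 with the BET inhibitor against 8.20 and 8.41, a change of -0.95 ± 0.16 (adjusted p = 0.00593, limma). NT5C3A, a pyrimidine 5′-nucleotidase, was at 9.55 and 10.02 against 8.61 and 8.84, a change of 1.06 ± 0.18 (adjusted p = 0.0056, limma). For both genes the groups did not overlap, and each call remained in 3 of 4 fits that leave out an array. AMPD1, an AMP deaminase, was at 4.68 and 5.37 against 5.81 and 6.15 (-0.96 ± 0.26). SLC19A1, the reduced folate carrier, changed by -0.61 ± 0.12, DCTD, the dCMP deaminase, by -0.61 ± 0.15, UPRT by -0.54 ± 0.15 and ITPA, which clears ITP, by -0.48 ± 0.12. In Raji at 8 h NT5C3A was at 9.10 and 8.96 against 8.42 and 8.71, which did not pass. Untreated Raji cells had 8.38 and 8.11. Over these NT5C3A rose with the BET inhibitor, by 0.92 at 4 h (adjusted p = 0.0293, limma) and 0.79 at 8 h (adjusted p = 0.0421, limma).

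In Raji at 8 h AK3, a mitochondrial GTP:AMP phosphotransferase, was at 7.75 and 7.84 with the BET inhibitor against 7.00 and 6.80, a change of 0.89 ± 0.12 (adjusted p = 0.00378, limma). PSAT1 and PHGDH make serine, the main donor of one-carbon units. PSAT1 was at 8.46 and 8.53 against 9.46 and 9.58 (-1.03 ± 0.21, adjusted p = 0.029, limma), and PHGDH at 7.58 and 7.48 against 8.08 and 8.14 (-0.58 ± 0.13, adjusted p = 0.0462, limma). DCTD was at 7.01 and 6.82 against 8.08 and 7.70 (-0.98 ± 0.15, adjusted p = 0.00833, limma), and it was the only gene of the wider list to fall at 8 h in both lines. By limma none of the 54 passed a test of Raji minus LP-1 for the 8 h response, so the calls in 1 line are not shown to differ from the other. Averaged over 4 and 8 h, GGH (0.51 ± 0.11), which trims folate polyglutamates, and DPYD (0.57 ± 0.12), which degrades pyrimidines, also rose in Raji.

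**Figure D4:**
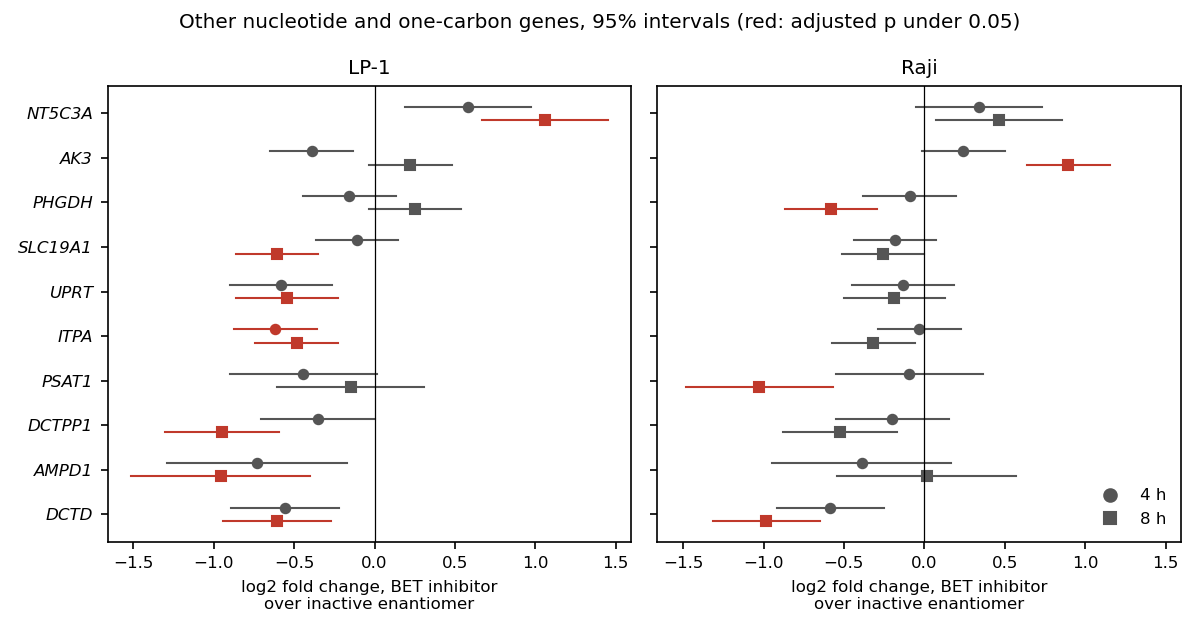
Log2 fold change of the BET inhibitor over the inactive enantiomer (x axis) with 95% intervals in LP-1 (left) and Raji (right) at 4 h (circles) and 8 h (squares), for the 10 genes of the wider list that passed in at least 1 of the 4 comparisons. Red marks an adjusted p under 0.05. At 8 h NT5C3A in LP-1 and AK3 in Raji are red right of 0, and DCTD is red in both lines. NT5C3A lies right of 0 in Raji too, without passing.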

How the data were processed

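RNA of 20 arrays (10 groups of 2 biological replicates, grouped by the labels) was measured on exon arrays. The deposited values are log2 expression per transcript-level probe set, made by the authors with RMA in Affymetrix Expression Console on hg19, per the submitters' processing notes, and used as deposited. RMA normalizes probes across arrays, so a shift shared by most genes may be reduced or removed. Differences of scale remain in the deposited values, with array medians between 5.13 and 5.39. Of 22011 probe sets, 14432 carry 1 symbol, 2408 several and 5171 none in the platform table, and 14404 were matched to RefSeq. Each gene is read by its single-symbol probe set with the highest mean.

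limma 3.58.1 (R 4.3.3) fitted 1 mean per group to all 20 arrays (10 residual and 2.59 prior degrees of freedom), and each two-sided p was adjusted by the Benjamini-Hochberg method across the whole table. It was tested on simulated data with independent noise in each probe set and no differences of scale between arrays. That test does not show how steady the calls on the real arrays are. The genes, lists and comparisons were chosen with earlier results of these data known. Named are all listed genes, MYC, HEXIM1 and genes of the wider list that passed a BET inhibitor over inactive enantiomer comparison, with values on every array for listed genes that passed such a comparison and for their paralogs. Shared probe signal between paralogs was not tested. The alternatives tried were quantile normalization, centring, leaving out dim probe sets, an intensity trend with robust prior, the line alone, a replicate block and leaving out each array. Promoter windows are from RefSeq (GRCh38.p14), which is another build than hg19, so they serve as sequences of the named genes only.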

Additional observations from a re-analysis of the deposited data

Results flagged for a closer look

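CTPS2 passed the test for a difference between Raji and LP-1 in the response to the BET inhibitor, with LP-1 values near the array 25th percentile. At 8 h its response over the inactive enantiomer was -1.49 ± 0.15 in Raji and 0.23 ± 0.15 in LP-1, and the difference of -1.72 ± 0.21 passed the test of the interaction itself (adjusted p = 0.0054, limma). The probe set was at 5.81 and 6.10 against 7.45 and 7.44 in Raji. In LP-1 it was at 3.89 and 3.97 against 3.50 and 3.89, beside array 25th percentiles of 3.78 to 3.89. The part of this low level in the difference was not tested. No group had enough arrays for a check of single outlying arrays.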

How the results depend on the processing

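With 2 arrays per group, most counts of genes that passed were small, and precision is limited by how few arrays there are. The cause of each change in a count was not tested. In LP-1 at 4 h the 1 fall became 0 after quantile normalization, with arrays centred, in the fit on the line alone and with the replicate block. In LP-1 at 8 h the 3 falls became 6 calls after quantile normalization (1 higher and 5 lower), 6 without the dimmest probe sets (3 higher and 3 lower), 5 with the intensity trend and robust prior (2 higher and 3 lower) and 0 in the fit on LP-1 alone. In Raji at 4 h the count of 0 became 1 (UCK2) after quantile normalization and 1 without the dimmest probe sets. In Raji at 8 h the 3 falls became 5 calls after quantile normalization (2 higher and 3 lower), 4 with arrays centred (1 higher and 3 lower), 4 without the dimmest probe sets (1 higher and 3 lower), 1 (CTPS2) in the fit on Raji alone and 2 with the replicate block. Averaged over times, the 5 calls in LP-1 became 9 after quantile normalization (1 higher and 8 lower) and 3 on the line alone, and the 5 in Raji 7 after quantile normalization. Against untreated cells, the 5 calls in LP-1 at 4 h became 0 after quantile normalization, 0 with arrays centred and 0 on the line alone, the 6 at 8 h became 3 on the line alone, and the 1 in Raji at 4 h became 2 after quantile normalization, 0 on the line alone and 0 with the replicate block. Leaving out each array in turn gave 0 to 1 calls in LP-1 at 4 h, 0 to 2 in LP-1 at 8 h, 0 to 1 in Raji at 4 h, 1 to 2 in Raji at 8 h, 3 to 6 for the LP-1 average, 4 to 5 for the Raji average, 0 to 1 for the difference between times in LP-1, and, for the BET inhibitor over untreated cells, 0 to 4 and 3 to 6 in LP-1 at 4 and 8 h and 0 to 0 and 1 to 2 in Raji. Untreated Raji over LP-1 gave 7 to 8. The difference between lines at 8 h stayed at 1 (CTPS2) under each setting run, and the inactive enantiomer over untreated cells at 0. For single genes, 1311 values were recomputed over 124 called changes, and 0 changed sign, while part of the calls were lost. These changes are of the listed genes, the wider list, MYC and HEXIM1, with the untreated lines compared among them. They are therefore no measure of how steady the calls of the listed genes alone were. Replicate numbers did not pair the arrays (r of deviations -0.16 to 0.121 over 20 pairs of groups within a line, 1 above 0.1). No measured gene had more than 1 probe set of its own symbol, so a repeat over all its probe sets was not run.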

Other observations

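The wider list of nucleotide and one-carbon genes differed between the untreated lines in 18 of its 54 measured genes, with 4 higher and 14 lower in Raji, against 24.3% of all probe sets (6.79% higher and 17.5% lower). GLDC, the glycine decarboxylase of the glycine cleavage system, was at 3.78 and 4.92 in Raji against 9.77 and 9.92 in LP-1 (adjusted p = 2.12e-06, limma). AMPD1, an AMP deaminase, was at 2.59 and 2.47 in Raji against 6.86 and 6.92 in LP-1, and ADA, the adenosine deaminase, was at 6.41 and 6.30 against 8.62 and 8.48. PHGDH, the first enzyme of serine synthesis, was higher in Raji, at 8.04 and 8.24 against 7.16 and 7.30 (0.92 ± 0.13, adjusted p = 0.000167, limma), as was the nucleoside transporter SLC29A2, at 6.30 and 6.33 against 5.55 and 5.20. TK2, the mitochondrial thymidine kinase, was lower in Raji, at 3.99 and 4.17 against 5.67 and 5.61. The Raji values of GLDC, AMPD1 and TK2 lie near or below the 25th percentile of these arrays (3.77 and 3.75), except 1 GLDC array (4.92), so no size is given for their differences. GLDC, AMPD1, ADA, PHGDH, SLC29A2 and TK2 were picked from the 18 after their values were seen.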
